A study of Homo sapiens with 6 samples.

Results

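SH3KBP1, CD2AP, CBL, CBLB and CBLC form the adaptor and ubiquitin ligase set that takes the epidermal growth factor receptor (EGFR) off the cell surface. They were taken from the deposited tables by gene symbol, as 5 of 26334 genes, and hold 8 of the 51398 isoforms in the files. SH3KBP1 was chosen from its isoform NM_001184960, whose level had been seen to differ from shScr with both shRNAs, so every SH3KBP1 value against shScr is given as a description without a test. The other 4 genes were picked for their function, with earlier results of these data known, and were tested.

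The RNA came from PC-9, an established cell line from a human lung adenocarcinoma whose EGFR gene is mutated to an active form. The line was grown in serum-containing medium, and the sources used here name no drug for these libraries. Cells carried the control shRNA shScr or 1 of a pair of shRNAs against RBM10, an RNA-binding splicing factor, here called shRBM10#1 and shRBM10#2, and each condition was sequenced as 2 libraries. The labels name shScr for the control libraries while the methods name parental cells, and nothing states whether libraries of 1 condition came from separate cultures, so p-values measure the spread between these libraries. Pooled RBM10 KD means the 4 shRBM10 libraries taken as 1 group.

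Receptor removal works in steps. CBL proteins are E3 ligases that bind the phosphorylated receptor, directly or through GRB2, and attach ubiquitin to it. CBL and CBLB bind the SH3 domains of the adaptors encoded by SH3KBP1 (the protein CIN85) and CD2AP, which bring in endophilins, and the receptor enters clathrin-coated pits. Ubiquitin is then read by epsins, EPS15 and the ESCRT complexes, which route the receptor to the lysosome, while deubiquitinating enzymes and recycling endosomes can return it to the surface. SH3KBP1 also binds actin capping protein and other partners through its proline-rich and coiled-coil regions.

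Library depth was 31953729 to 37557507 expected counts. The mean fragment length implied by the deposited effective lengths was 231.2 nt in shScr library 2 and 264.8 to 281.2 nt in the others, a difference whose part in the results was not tested. All 6 epithelial markers were above 1 TPM (the authors' level per transcript length) in every library, and the 5 leukocyte markers summed to 0.400 to 1.13 TPM. The 5 fibroblast markers summed to 2.00 to 2.96 TPM. The 4 endothelial markers summed to more with shRBM10#1 than in the other libraries, mostly through CDH5. Its level was 4.65 and 6.16 TPM with shScr, 8.45 and 10.9 with shRBM10#1, and 6.08 and 5.64 with shRBM10#2. PECAM1 was at 1.16 and 1.25 TPM with shScr, 1.63 and 1.64 with shRBM10#1, and 1.31 and 1.57 with shRBM10#2. VWF and KDR stayed below 1 TPM. The epithelial keratin KRT19 was at 5530 and 5790 TPM with shScr, 6544 and 6441 with shRBM10#1, and 4420 and 4608 with shRBM10#2. The part of these levels in the results was not tested. RBM10 itself was at 83.2 and 86.2 CPM (counts per library size after TMM scaling) with shScr, 59.8 and 56.4 with shRBM10#1, and 27.2 and 26.9 with shRBM10#2. The groups did not overlap. The first shRNA left 68.6% of the shScr level of RBM10 (log2 FC −0.54, SE 0.0670, FDR = 0.000228, edgeR), and the second 31.9% (log2 FC −1.65, SE 0.0701, FDR = 5.1e-08, edgeR).

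The SH3KBP1 isoforms differ in where they start. All positions are in GRCh38 from GENCODE 29, matched by RefSeq identifier, because the files were made on hg19 and hold no coordinates. NM_031892 spans chrX:19533975-19887601 on the minus strand in 18 exons and encodes 665 residues. NM_001184960 spans chrX:19534007-19670998 in 13 exons and encodes 427 residues. Its own first exon, chrX:19670862-19670998, lies inside intron 6 of NM_031892 and carries the start codon and 4 codons in all, after which it continues into exon 7 of NM_031892. The 242 codons of exons 1 to 6 that it leaves out include the first and the second SH3 domains of CIN85, which bind CBL, while the last SH3 domain, the proline-rich stretch and the coiled coil are kept. NM_001024666 spans chrX:19535693-19799751 in 17 exons, has another first exon, and encodes 628 residues.

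The joins that set these isoforms apart are shown because the isoform estimates rest on reads across such joins and on the exons before them. Coding bases are printed from 5′ to 3′, with the upstream exon in lower case and the downstream exon in capitals, as GENCODE 29 transcripts give them.
NM_031892, exon 6 to exon 7: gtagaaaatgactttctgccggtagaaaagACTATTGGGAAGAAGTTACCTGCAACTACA
NM_001184960, its exon 1 from the start codon to its exon 2: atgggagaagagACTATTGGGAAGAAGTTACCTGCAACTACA
NM_001024666, its exon 1 to its exon 2: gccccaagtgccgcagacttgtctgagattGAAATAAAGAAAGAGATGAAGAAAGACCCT

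NM_031892 and NM_001184960 enter the same 76-nt exon, whose first 30 bases are the capitals of the first and second lines. They share 3682 nt, which is 96.4% of NM_001184960 and 77.8% of NM_031892. NM_001184960 has 137 nt of its own. Reads from the shared part were divided between isoforms by RSEM, and GENCODE 29 lists 9 SH3KBP1 transcripts where the files hold 3, so a read from another transcript would be placed on 1 of these 3.

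**Figure D1:**
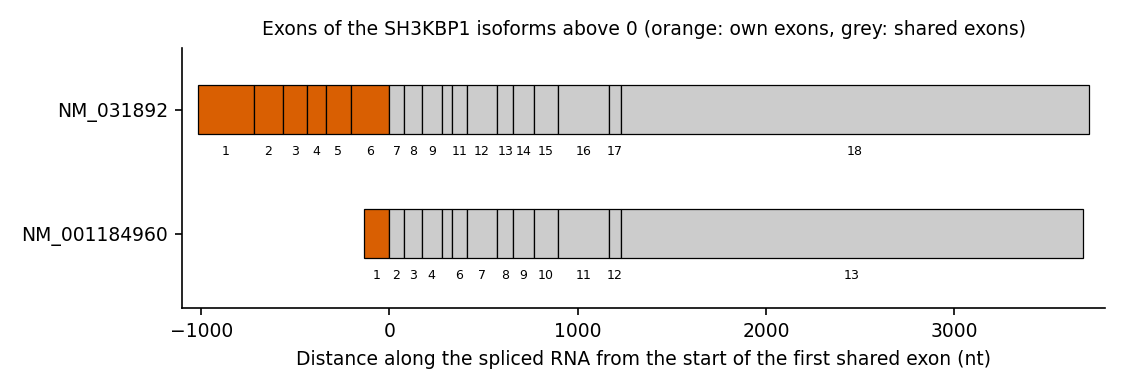
Exons of NM_031892 (top, 18 exons) and NM_001184960 (bottom, 13 exons), drawn to scale in spliced nucleotides from the start of the first shared exon, with exon numbers under the larger boxes. The orange boxes are exons that 1 isoform has alone, 1017 nt in NM_031892 and 137 nt in NM_001184960, and the grey boxes are shared.

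The first exon of NM_001184960 has a transcription start of its own, so the 250 bases before it are shown (RefSeq, GRCh38.p14, chrX:19671000-19671249, minus strand), with the only motif match in capitals, the complement of CCAAT.
Upstream of NM_001184960: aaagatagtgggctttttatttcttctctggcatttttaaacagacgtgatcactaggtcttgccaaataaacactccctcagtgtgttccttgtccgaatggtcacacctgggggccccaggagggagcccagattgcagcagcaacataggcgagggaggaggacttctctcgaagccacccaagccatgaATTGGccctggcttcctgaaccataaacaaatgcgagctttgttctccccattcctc

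Both strands were searched for 4 common promoter motifs, and with a single match in all no matches overlapped. The CCAAT box, spelled CCAAT, was found 1 time, and 32.0% of the 35116 windows of this length in RefSeq hold it. The TATA box was searched as TATAAA and had no match, against 10.7% of all windows with one. A GC box, here GGGCGG, was absent too and is held by 42.6% of windows. The AP-1 element in the spelling TGACTCA had no match, where 4.20% of windows have one. The window held 5 CpG dinucleotides against a median of 11 over all windows, and its GC content was 50.4% against a median of 58.0%. RefSeq gave 4 windows for SH3KBP1, 1 for CD2AP and 5 for CBLB.

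Both detected SH3KBP1 isoforms were at a lower level in the shRBM10 libraries, the short one by the larger factor. NM_001184960 was at 16.8 and 19.99 TPM in the shScr libraries, at 3.50 and 2.54 TPM under shRBM10#1, and at 4.68 and 4.48 TPM under shRBM10#2. Both shScr libraries stood far above all 4 shRBM10 libraries, and the shRNAs did not overlap each other either. The means were 18.4 ± 2.23 (SD, n = 2), 3.02 ± 0.679 and 4.58 ± 0.141 TPM, so that 16.4% of the shScr level was left with shRBM10#1 and 24.9% with shRBM10#2. On the scale of expected counts the libraries held 1377 and 1446, 271.1 and 239.6, and 426.1 and 422.2 reads of this isoform, and the log2 FC was −2.51 with shRBM10#1 and −1.94 with shRBM10#2.

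The long isoform NM_031892, with all its SH3 domains, was at 20.9 and 23.3 TPM in the shScr libraries, at 16.8 and 12.2 TPM under shRBM10#1, and at 16.8 and 17.7 TPM under shRBM10#2. The shScr libraries were again the higher ones, by a smaller margin. In TPM the shRNAs came close without overlap (16.77 in shRBM10#1 library 1 and 16.83 in shRBM10#2 library 1). In CPM these same libraries overlapped, at 51.748 and 51.743. Means were 22.1 ± 1.74 (SD, n = 2), 14.5 ± 3.27 and 17.3 ± 0.601 TPM, with a log2 FC of −0.52 and −0.29. NM_001024666 was listed at 0 in all 6 libraries. It has 118 nt that NM_031892 lacks, and reads from the rest of it would be placed on the other isoforms, so no upper limit is given.

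The makeup of the gene therefore differed as well. NM_001184960 made up 44.6% and 46.2% of SH3KBP1 transcripts with shScr, 17.3% in each shRBM10#1 library, and 21.8% and 20.2% with shRBM10#2. The difference of this share from shScr was −28.1 percentage points with shRBM10#1 and −24.4 points with shRBM10#2, where the largest SD within a condition was 1.09 points. By expected counts, without division by length, the share was 39.2% in shScr library 1 (95% Wilson interval 37.6% to 40.8%) and 40.7% in library 2 (39.1% to 42.3%). It was 14.3% in each shRBM10#1 library, with intervals from 12.7% to 16.1%. With shRBM10#2 it was 18.2% (16.7% to 19.8%) and 16.8% (15.4% to 18.4%). These intervals cover counting error only, and not the division of reads between isoforms. Since NM_001184960 was chosen on its difference from shScr, neither the SD nor the intervals test that difference.

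**Figure D2:**
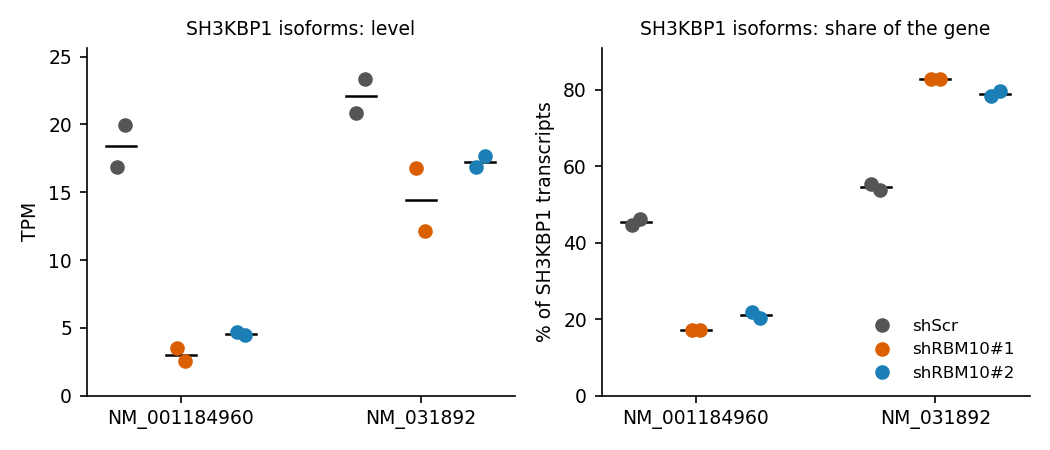
Level in TPM (left) and percent of SH3KBP1 transcripts (right) of the isoforms NM_001184960 and NM_031892 in each library, with a point per library and a line at the mean of 2 libraries. NM_001184960 lies at 16.8 and 19.99 TPM with shScr and between 2.54 and 4.68 TPM in the 4 shRBM10 libraries, while the 2 isoforms' shares move in opposite directions because they sum to 100%.

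Summed over isoforms, SH3KBP1 was at 108.3 and 107.9 CPM in the shScr libraries, at 60.5 and 45.4 CPM under shRBM10#1, and at 63.1 and 65.4 CPM under shRBM10#2. The shScr libraries agreed closely and lay above every shRBM10 library. The total was 48.9% of shScr with shRBM10#1 (log2 FC −1.03), 59.5% with shRBM10#2 (log2 FC −0.75) and 54.2% over both (log2 FC −0.88).

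The difference between the shRNAs was not used in choosing SH3KBP1 and was tested. The SH3KBP1 total was higher with shRBM10#2 than with shRBM10#1 by a log2 FC of 0.28 (95% interval 0.0569 to 0.505), which did not pass the threshold (FDR = 0.0640, edgeR), where 25.5% of 14217 genes did at an FDR below 0.05. This value turned on shRBM10#1 library 2, the lowest of all. It was 0.085 without that library (FDR = 0.429, edgeR), and 0.50 without shRBM10#1 library 1 (FDR = 0.000850, edgeR). DESeq2 placed it past the threshold (adjusted p = 0.0470), as did edgeR without the filter on low counts (FDR = 0.00324). NM_001184960 was higher with shRBM10#2 by a log2 FC of 0.57 (interval 0.207 to 0.942, FDR = 0.110, edgeR), and NM_031892 by 0.23 (interval −0.117 to 0.578, FDR = 0.429, edgeR). DESeq2 gave NM_001184960 an adjusted p of 0.00268. At an FDR below 0.05 and a log2 FC beyond 1 either way, 0.359% of 26464 isoforms passed. Neither SH3KBP1 isoform reached that log2 FC. More isoforms passed by the FDR alone, and their count is given in the closing section. Isoform usage, the level of an isoform relative to its gene, did not pass for SH3KBP1 (gene FDR = 1, edgeR), where 1.92% of 6405 genes did. RBM10 went the other way, with less RNA under shRBM10#2 than under shRBM10#1 (log2 FC −1.11, SE 0.0703, FDR = 3.65e-06, edgeR).

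CD2AP, the other adaptor of the CIN85 family and a link to actin, was at 75.6 and 87.6 CPM in the shScr libraries, at 77.3 and 79.8 CPM under shRBM10#1, and at 87.6 and 85.2 CPM under shRBM10#2. The shScr libraries enclosed those of shRBM10#1 and overlapped those of shRBM10#2. Its log2 FC was −0.05 with shRBM10#1 (95% interval −0.218 to 0.110, FDR = 0.688, edgeR) and 0.08 with shRBM10#2 (interval −0.0811 to 0.245, FDR = 0.463, edgeR), and neither passed. Among all genes tested, 14% passed with shRBM10#1 (7.13% higher and 6.91% lower) and 25.9% with shRBM10#2 (12% higher and 13.9% lower). The files hold a single isoform, NM_012120 (chr6:47477789-47627263, plus strand, 18 exons), so a change of isoform could not be seen.

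CBL, the founding ligase of the family, was at 44.3 and 47.0 CPM in the shScr libraries, at 38.9 and 33.3 CPM under shRBM10#1, and at 43.0 and 39.8 CPM under shRBM10#2. Both shScr libraries lay above all 4 others. CBL fell with shRBM10#1 to 79.0% of shScr (log2 FC −0.34, SE 0.0853, FDR = 0.0189, edgeR), and this was lost without shScr library 2 (log2 FC −0.30, FDR = 0.122, edgeR) or without shRBM10#1 library 2 (log2 FC −0.23, FDR = 0.132, edgeR). With shRBM10#2 the log2 FC was −0.14 (95% interval −0.323 to 0.0415, FDR = 0.243, edgeR) and did not pass. The shRNAs themselves did not differ past the threshold (log2 FC 0.20 for shRBM10#2 against shRBM10#1, interval 0.0152 to 0.384, FDR = 0.105, edgeR), except without shRBM10#1 library 1 (log2 FC 0.31, FDR = 0.0223, edgeR). Its isoform in the files was NM_005188 (chr11:119206276-119308149, plus strand, 16 exons). In the fit over isoforms NM_005188 did not pass with shRBM10#1 (log2 FC −0.34, FDR = 0.206, edgeR).

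CBLB, the second ubiquitously expressed ligase, was at 25.1 and 23.0 CPM in the shScr libraries, at 20.8 and 22.1 CPM under shRBM10#1, and at 17.5 and 19.1 CPM under shRBM10#2. The 3 conditions did not overlap. CBLB fell with shRBM10#2 to 76.1% of shScr (log2 FC −0.39, SE 0.0880, FDR = 0.00685, edgeR), a call lost without shScr library 1 (FDR = 0.0551, edgeR) or without shRBM10#2 library 1 (FDR = 0.103, edgeR), at a log2 FC of −0.33 in each. With shRBM10#1 the log2 FC was −0.17 (95% interval −0.355 to 0.0240, FDR = 0.239, edgeR). The difference between shRNAs, −0.23 on the log2 scale (interval −0.419 to −0.0362), did not pass (FDR = 0.0773, edgeR). Its isoform was NM_170662 (chr3:105655461-105869043, minus strand, 19 exons), which is 3976 nt long in the files and 6780 nt in GENCODE 29. In the fit over isoforms NM_170662 did not pass with shRBM10#2 (log2 FC −0.39, FDR = 0.0935, edgeR).

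CBLC, the ligase largely restricted to epithelia, was at 28.5 and 28.1 CPM in the shScr libraries, at 28.6 and 24.2 CPM under shRBM10#1, and at 27.3 and 27.4 CPM under shRBM10#2. The shScr libraries lay within the range of shRBM10#1 and just above those of shRBM10#2. The log2 FC was −0.10 with shRBM10#1 (95% interval −0.289 to 0.0897, FDR = 0.494, edgeR) and −0.05 with shRBM10#2 (interval −0.235 to 0.140, FDR = 0.726, edgeR).

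CBLC has a full form, NM_012116 (chr19:44777890-44800652, plus strand, 11 exons, 474 residues), and a form without exon 5, NM_001130852 (chr19:44777869-44800634, 10 exons, 428 residues). The skipped exon, chr19:44784264-44784401, has 138 nt and 46 codons and keeps the reading frame. The joins on either side are shown, since they and exon 5 itself separate the forms inside the coding region. The upstream exon is in lower case and the downstream exon in capitals.
NM_012116, exon 4 to exon 5: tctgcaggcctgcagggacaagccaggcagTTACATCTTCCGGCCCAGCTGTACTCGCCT
NM_012116, exon 5 to exon 6: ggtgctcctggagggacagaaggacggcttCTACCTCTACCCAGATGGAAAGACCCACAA
NM_001130852, exon 4 to the next exon: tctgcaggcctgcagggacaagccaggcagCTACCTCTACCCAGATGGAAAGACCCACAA

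The form without exon 5 made up 18.7% and 17.6% of CBLC transcripts with shScr, 22.8% and 10.3% with shRBM10#1, and 14.5% and 17.2% with shRBM10#2. The shRBM10#1 libraries were the highest and the lowest of the 6, so this condition enclosed the others. Usage of the CBLC isoforms did not pass with shRBM10#1 (gene FDR = 1, edgeR; background 0.172% of 6405 genes) or with shRBM10#2 (gene FDR = 1, edgeR; background 2.75%).

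**Figure D3:**
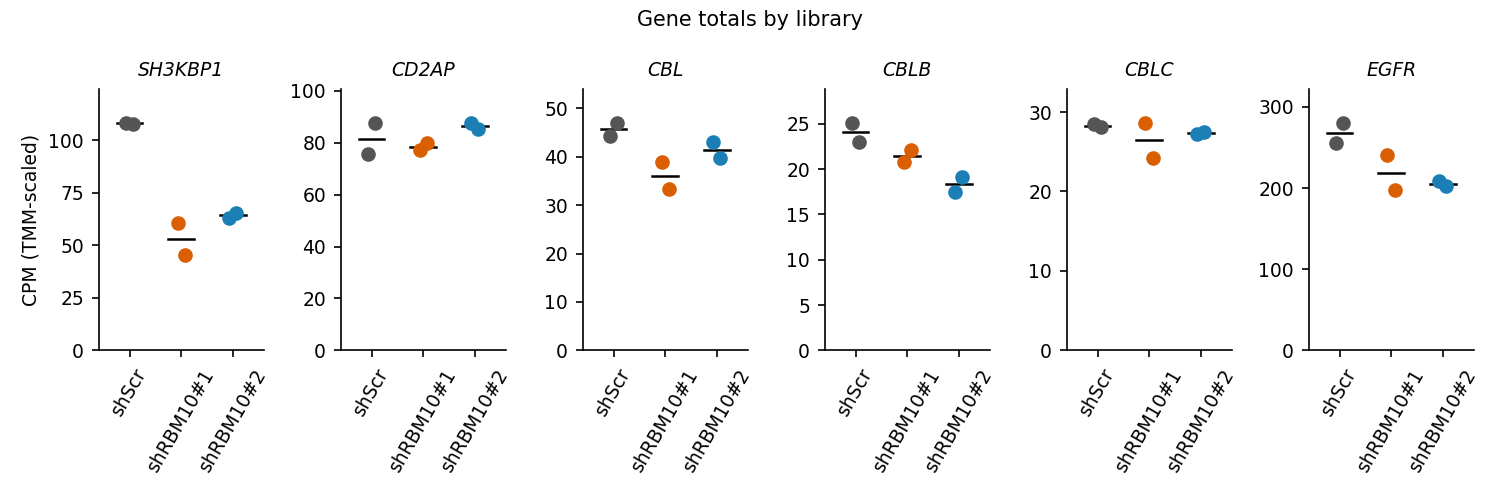
Gene totals in CPM after TMM scaling for SH3KBP1, CD2AP, CBL, CBLB, CBLC and EGFR, with a point per library, a line at the mean of 2 libraries and each axis starting at 0. SH3KBP1 lies at 108.3 and 107.9 CPM with shScr and between 45.4 and 65.4 CPM in the shRBM10 libraries, CBL and CBLB are lower by smaller amounts, and CD2AP and CBLC overlap shScr in at least 1 shRBM10 condition.

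With all 4 shRBM10 libraries as 1 group, none of the tested ligases and adaptors passed. The log2 FC was 0.02 for CD2AP (FDR = 0.957, edgeR), −0.24 for CBL (FDR = 0.291, edgeR), −0.28 for CBLB (FDR = 0.239, edgeR) and −0.07 for CBLC (FDR = 0.732, edgeR). Of these 4 genes, CBLB had an unadjusted p of 0.0309 and CBL one of 0.0502, and DESeq2 called 0 as well. RBM10 itself did not pass there (log2 FC −0.99, FDR = 0.146, edgeR), nor did EGFR in edgeR (log2 FC −0.33, FDR = 0.128), although EGFR passed in DESeq2 (adjusted p = 0.0436). In that comparison 1.62% of all genes passed. Each shRNA against shScr uses the same shScr libraries, so the pair of comparisons is not independent.

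EGFR, the receptor these proteins act on, was at 255.2 and 280.1 CPM in the shScr libraries, at 241.2 and 197.2 CPM under shRBM10#1, and at 208.3 and 202.3 CPM under shRBM10#2. The shScr libraries lay above the rest. EGFR RNA fell with shRBM10#1 to 81.9% of shScr (log2 FC −0.29, SE 0.0873, FDR = 0.0441, edgeR). Under shRBM10#2 it fell to 76.7% (log2 FC −0.38, SE 0.0873, FDR = 0.00758, edgeR). The shRBM10#1 call was lost when any of the 5 libraries other than shRBM10#1 library 1 was left out (FDR 0.0623 to 0.261, edgeR), with a log2 FC of −0.15 without shRBM10#1 library 2. The shRBM10#2 call was lost without shScr library 2 or either shRBM10#2 library (FDR 0.0556 to 0.0917, edgeR). The values are RNA levels and do not measure receptor at the surface.

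**Figure D4:**
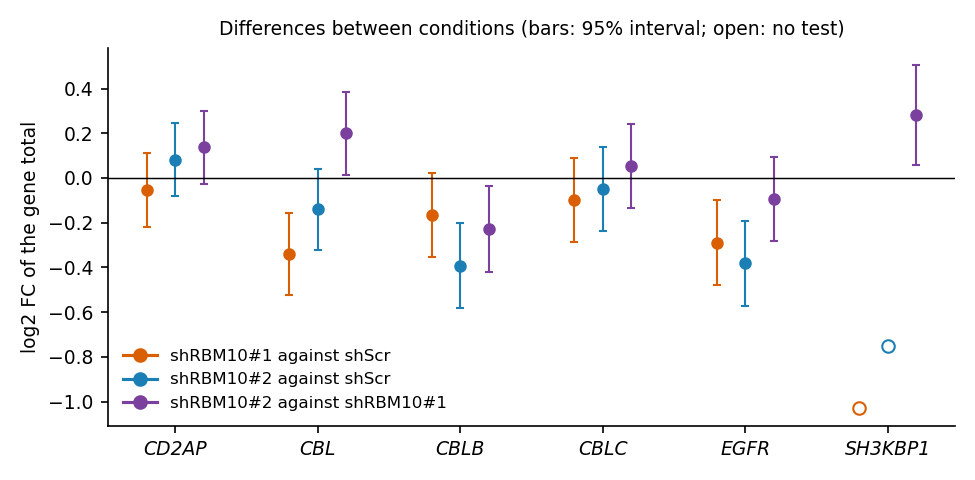
log2 FC of gene totals for shRBM10#1 against shScr, shRBM10#2 against shScr and shRBM10#2 against shRBM10#1, with 95% intervals from the edgeR fit. SH3KBP1 against shScr is drawn with open points and no interval because it was chosen on that contrast, at −1.03 and −0.75, and the intervals of CD2AP and CBLC include 0 in all 3 comparisons.

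Per length, SH3KBP1 had the highest level of the 5 genes with shScr and the third highest with either RBM10 shRNA. In shScr the order was SH3KBP1 at 40.5 ± 3.97 TPM (SD, n = 2), CBLC at 33.1 ± 2.31 TPM, CD2AP at 24.5 ± 4.96 TPM, CBLB at 9.91 ± 0.375 TPM and CBL at 6.41 ± 0.926 TPM. With shRBM10#1 it was CBLC at 29.2 ± 4.40 TPM, CD2AP at 21.8 ± 0.0424 TPM, SH3KBP1 at 17.5 ± 3.95 TPM, CBLB at 8.26 ± 0.148 TPM and CBL at 4.71 ± 0.636 TPM. With shRBM10#2 it was CBLC at 30.8 ± 0.0212 TPM, CD2AP at 24.6 ± 0.530 TPM, SH3KBP1 at 21.8 ± 0.460 TPM, CBLB at 7.23 ± 0.424 TPM and CBL at 5.54 ± 0.304 TPM. Neighbours in each order had no overlapping libraries, and no test was made between genes. SH3KBP1 stood above 81.2% of the genes with a level over 0 in shScr, 67.2% with shRBM10#1 and 71.4% with shRBM10#2.

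The genes whose totals followed SH3KBP1 most closely over the 6 libraries, by Pearson r of log2 CPM among 14216 genes, were ANXA3 (r = 0.997), MTHFD1L (r = 0.997), TRAPPC2B (r = 0.996) and TAF15 (r = 0.996). ANXA3, an annexin, was at 43.8 and 45.8 CPM in the shScr libraries, at 20.6 and 13.2 CPM under shRBM10#1, and at 21.2 and 24.2 CPM under shRBM10#2. For NM_001184960 the closest of 26462 isoforms of other genes were NM_001083924 of C1orf116 (r = 0.998), NM_015038 of KIAA0754 (r = 0.996), NM_001458 of FLNC (r = 0.995) and NM_001134870_1 of PPP1R18 (r = 0.995). These libraries share conditions and were searched for the highest r, so the values are descriptions.

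Around these 5 genes, 124 genes of the pathway in 7 lists were examined, of which 116 passed the filter on low counts. With shRBM10#1, 13 were called at an FDR below 0.05 in edgeR, 5 higher and 8 lower, which is 11.2% against 14% of all genes. With shRBM10#2, 35 were called, 11 higher and 24 lower, which is 30.2% against 25.9%. The median log2 FC was −0.01 and −0.06 over the lists and 0.01 over all genes in both. The count with shRBM10#1 was 5 without shScr library 2, 4 without shRBM10#1 library 2 and 25 without shRBM10#1 library 1. The count with shRBM10#2 was 23 and 22 without shScr library 1 or 2, and 7 and 8 without shRBM10#2 library 1 or 2. In the pooled comparison LRIG1 alone passed (FDR = 0.0400, edgeR), and between the shRNAs 36 passed, 12 higher and 24 lower with shRBM10#2, which is 31.0% against 25.5%.

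Among 16 tested CBL regulators and ubiquitin enzymes, 3 were called with shRBM10#1, all higher, and 7 with shRBM10#2, 3 higher and 4 lower. That is 18.75% and 43.75%, against 14% and 25.9% of all genes. LRIG1, a membrane protein that recruits CBL to EGFR family receptors, was at 0.720 and 1.11 TPM in the shScr libraries, at 4.13 and 5.82 TPM under shRBM10#1, and at 2.74 and 2.35 TPM under shRBM10#2. No condition overlapped another. The rise with shRBM10#1 was 2.56 on the log2 scale (SE 0.197, FDR = 1e-05, edgeR). Under shRBM10#2 it was 1.55 (SE 0.205, FDR = 0.000435, edgeR), and LRIG1 was the only list gene called with a log2 FC beyond 1. The shRNAs differed for it (log2 FC −1.01 for shRBM10#2 against shRBM10#1, FDR = 0.00140, edgeR). SPRY1, a Sprouty inhibitor of receptor signalling, was at 7.20 and 9.01 TPM with shScr and between 9.69 and 12.1 TPM in the shRBM10 libraries, and rose with both (log2 FC 0.55, FDR = 0.0101 and 0.37, FDR = 0.0413, edgeR). DESeq2 did not call it with shRBM10#2 (adjusted p = 0.0563). Of the same family, SPRY2 was called higher with shRBM10#1 alone (log2 FC 0.66, FDR = 0.00593, edgeR). SPRY4 was called lower with shRBM10#2 alone (log2 FC −0.24, FDR = 0.0376, edgeR).

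The other genes named from that list were called with shRBM10#2 and not with shRBM10#1. SHC1, the adaptor that joins GRB2 to the receptor, was lower (65.8 and 69.9 TPM against 84.4 and 93.6 TPM in shScr, log2 FC −0.32, FDR = 0.00359, edgeR). UBE2D1, a ubiquitin-conjugating enzyme that works with CBL, was higher (22.1 and 25.2 TPM against 17.5 and 18.9 TPM, log2 FC 0.43, FDR = 0.00349, edgeR). Isoform usage of its relative UBE2D3 was called with shRBM10#2 (gene FDR = 0.0157, edgeR). There NM_181887 had 350.4 and 340.4 expected counts with shScr, 659.0 and 683.5 with shRBM10#1, and 788.1 and 963.8 with shRBM10#2, a rise of 1.26 on the log2 scale relative to the gene. The call was lost with a replicate block (FDR = 0.0879, edgeR) and without either shScr or either shRBM10#2 library (FDR 0.0908 to 0.596, edgeR). Of 69 list genes tested for usage, UBE2D3 was the 1 called by edgeR with shRBM10#2, which is 1.45% against 2.75% of all genes. For these genes edgeR called 0 with shRBM10#1 and 0 between the shRNAs, with 2 and 1 at an unadjusted p under 0.05. Usage calls by limma were more, with 2 list genes for shRBM10#1, 4 for shRBM10#2 and 4 between the shRNAs.

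Of 8 tested partners of SH3KBP1 and CD2AP, edgeR called 0 with shRBM10#1 (3 at an unadjusted p under 0.05, 0 by DESeq2) and 3 with shRBM10#2. The shares were 0% and 37.5%, against 14% and 25.9% of all genes. CAPZA2, a subunit of actin capping protein, was higher with shRBM10#2 (69.1 and 70.3 TPM against 56.2 and 63.0 TPM, log2 FC 0.29, FDR = 0.00614, edgeR). Its dimer partner CAPZB was lower (114.1 and 113.9 TPM against 135.8 and 153.5 TPM, log2 FC −0.29, FDR = 0.00469, edgeR), as was SH3GL1, an endophilin (38.8 and 38.0 TPM against 45.4 and 50.5 TPM, log2 FC −0.26, FDR = 0.0119, edgeR).

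The coat and adaptor list had 28 tested genes, with 3 called with shRBM10#1, all lower, and 7 with shRBM10#2, 1 higher and 6 lower. That is 10.7% and 25%, against 14% and 25.9% of all genes. AP2B1, a large subunit of the AP-2 clathrin adaptor, was at 71.1 and 88.4 TPM in the shScr libraries, at 64.5 and 53.9 TPM under shRBM10#1, and at 62.0 and 61.9 TPM under shRBM10#2. It lay below shScr in all 4 shRBM10 libraries and fell with both shRNAs (log2 FC −0.33, FDR = 0.0124 and −0.30, FDR = 0.0134, edgeR). REPS1, an EPS15 homology protein, also fell with both (log2 FC −0.33, FDR = 0.0249 and −0.30, FDR = 0.0219, edgeR). With shRBM10#2, the ubiquitin-binding adaptor EPS15 rose (log2 FC 0.35, FDR = 0.00217, edgeR), while epsin EPN1 (log2 FC −0.34, FDR = 0.00334, edgeR) and the uncoating kinase GAK (log2 FC −0.28, FDR = 0.00675, edgeR) fell. EPN1 was the most abundant of these, at 424.5 and 469.0 TPM with shScr and 338.4 and 340.4 TPM with shRBM10#2.

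Of 10 scission and uncoating genes tested, 4 were called with shRBM10#1, 1 higher and 3 lower, and 2 with shRBM10#2, both lower. The shares were 40% and 20%, against 14% and 25.9% of all genes. SNX18, a membrane-bending sorting nexin, was the one higher with shRBM10#1 (16.3 and 16.6 TPM against 13.0 and 14.5 TPM, log2 FC 0.36, FDR = 0.00402, edgeR). Of the 3 lower, DNM1 was at a log2 FC of −0.55 (FDR = 0.0176, edgeR). DNAJC6 (log2 FC −0.39, FDR = 0.0286, edgeR) and SNX9 (log2 FC −0.29, FDR = 0.0145, edgeR) were the others. With shRBM10#2, dynamin DNM2, the GTPase that cuts the vesicle neck, was lower (81.1 and 79.5 TPM against 92.8 and 111.5 TPM, log2 FC −0.28, FDR = 0.00604, edgeR), and so was amphiphysin BIN1 (42.4 and 41.7 TPM against 55.9 and 60.9 TPM, log2 FC −0.39, FDR = 0.00229, edgeR).

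Of 19 early and recycling endosome genes, 1 was called with shRBM10#1 and 7 with shRBM10#2, 3 higher and 4 lower. That is 5.26% and 36.8%, against 14% and 25.9% of all genes. RAB11FIP1, an effector of the recycling GTPase RAB11, fell with both (log2 FC −0.22, FDR = 0.0329 and −0.22, FDR = 0.0200, edgeR). EHD1, which acts in the exit of recycling endosomes, was lower with shRBM10#2 (75.0 and 73.2 TPM against 89.7 and 102.6 TPM, log2 FC −0.31, FDR = 0.00381, edgeR). RAB4A, a GTPase of fast recycling, was higher (20.1 and 21.96 TPM against 16.9 and 18.8 TPM, log2 FC 0.30, FDR = 0.0175, edgeR).

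Of 31 ESCRT and late endosome genes, 2 were called with shRBM10#1, 1 in each direction, and 9 with shRBM10#2, 3 higher and 6 lower. These calls made up 6.45% and 29.03% of the list, against 14% and 25.9% of all genes. The lowest p-values belonged to 3 genes that fell with shRBM10#2. The ESCRT-III subunit CHMP3 was at 55.0 and 54.8 TPM against 76.7 and 89.6 TPM (log2 FC −0.54, FDR = 0.000329, edgeR). The ESCRT-I subunit VPS37B was at 31.5 and 30.8 TPM against 40.2 and 44.1 TPM (log2 FC −0.38, FDR = 0.00188, edgeR). The ATPase VPS4A, which takes ESCRT-III apart, was at 90.4 and 90.0 TPM against 108.4 and 132.6 TPM (log2 FC −0.36, FDR = 0.00224, edgeR). The 4 deubiquitinating enzymes of endosomes had 0 calls in edgeR with either shRNA, 0 at an unadjusted p under 0.05, and 0 by DESeq2.

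Each call rests on 2 libraries a condition. The calls of LRIG1 with both shRNAs, of SNX18 with shRBM10#1, and of EPS15, BIN1, VPS37B, CHMP3 and VPS4A with shRBM10#2 held whichever library was left out. With shRBM10#1, SPRY1 was lost without shScr library 1 or shRBM10#1 library 2 (FDR 0.0817 and 0.0843, edgeR), and AP2B1 without shScr library 2 or shRBM10#1 library 2 (FDR 0.105 and 0.0713, edgeR). REPS1 (FDR 0.0504 to 0.170, edgeR) and RAB11FIP1 (FDR 0.0560 to 0.151, edgeR) were lost without any library but shRBM10#1 library 1. With shRBM10#2, SHC1 was lost without shRBM10#2 library 1 (FDR = 0.0943, edgeR) and UBE2D1 without library 2 (FDR = 0.0813, edgeR). CAPZA2, CAPZB, EPN1, GAK, DNM2 and EHD1 were lost without either shRBM10#2 library (FDR 0.0575 to 0.113, edgeR), SH3GL1 also without shScr library 1 and AP2B1 and RAB11FIP1 also without shScr library 2 (FDR 0.0533 to 0.182, edgeR). SPRY1, REPS1 and RAB4A were lost without any 1 of the shScr or shRBM10#2 libraries (FDR 0.0501 to 0.219, edgeR). No direction changed in these fits. Over all alternative fits the log2 FC with shRBM10#2 was 0.27 to 0.30 for CAPZA2, −0.29 to −0.28 for CAPZB and −0.36 to −0.32 for EPN1. It was −0.31 to −0.26 for GAK, −0.31 to −0.25 for DNM2 and −0.32 to −0.29 for EHD1. Gene counts differed least between the shRBM10#2 libraries (chi-square per degree of freedom 3.24, against 9.78 for shScr and 12.5 for shRBM10#1). A fit without a shRBM10#2 library loses this closest pair. Compared directly, the shRNAs did not differ past the threshold for SHC1, CAPZA2, SH3GL1 and GAK (FDR 0.0517 to 0.255, edgeR). They differed for CAPZB, UBE2D1, EPS15, EPN1, DNM2, BIN1, SNX18, EHD1, RAB4A, CHMP3, VPS37B and VPS4A (FDR 0.000232 to 0.0448, edgeR).

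**Figure D5:**
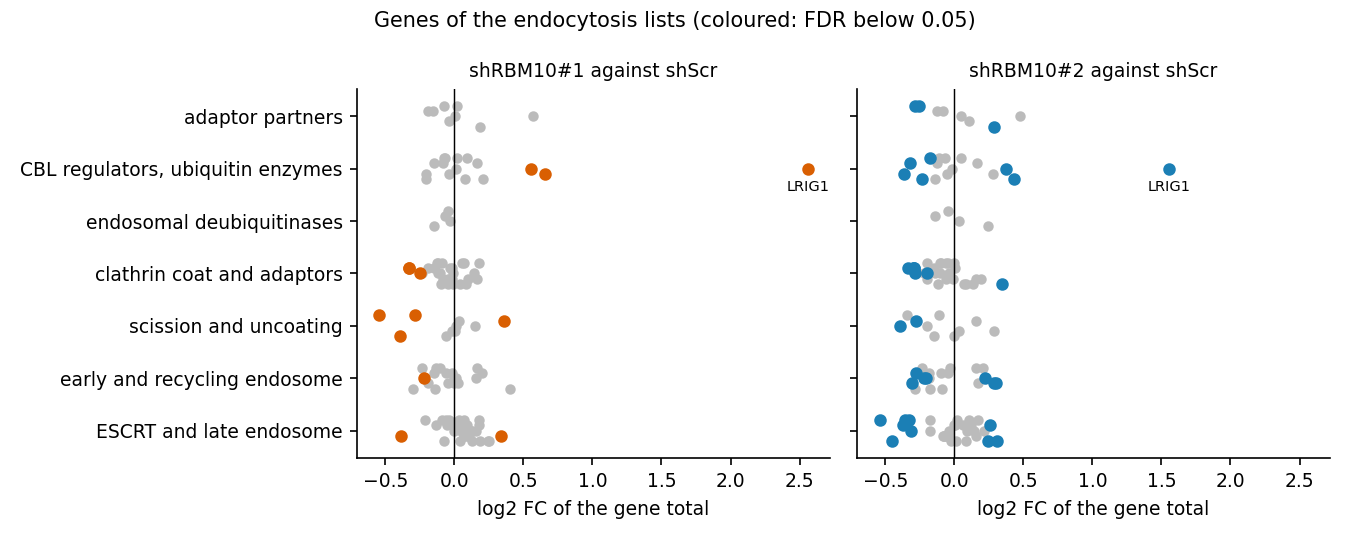
log2 FC of the 116 tested pathway genes, 1 point per gene, by list, for shRBM10#1 (left, 13 coloured) and shRBM10#2 (right, 35 coloured) against shScr, with color for an FDR below 0.05 in edgeR. LRIG1 lies apart at 2.56 and 1.55, and every other called gene has a log2 FC within 1 of 0.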

How the data were processed

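Total RNA of 6 PC-9 libraries was sequenced. Per the submitters' processing notes, STAR 2.4, RSEM 1.2.29 and edgeR were used with hg19; strand protocol, read length and annotation release are not given in the sources used here. The authors deposited for each isoform the expected count, which RSEM estimates and which need not be whole, TPM, FPKM (not used), the percent of its gene and the effective length. Expected counts were rounded, summed per gene symbol, and fitted in edgeR 4.0.16 (R 4.3.3) with its quasi-likelihood test after TMM scaling and filterByExpr, with 1 coefficient per condition and Benjamini-Hochberg adjustment over all 14217 genes or 26464 isoforms. Log2 CPM for r had a prior count of 2. Isoform usage was tested with diffSpliceDGE (Simes p per gene), and DESeq2 1.42.0 and limma 3.58.1 served as alternatives. Tests were two-sided, at an FDR of 0.05. Procedures were tested on simulated data with a fixed spread and planted changes larger than most of those called here, so smaller changes were not covered.

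The 5 genes and the lists were chosen with earlier results of these data known. Named genes were every isoform of the 5 genes, RBM10, EGFR, from each list up to 3 called genes of smallest p and up to 3 called in 1 direction with both shRNAs, list genes with usage called, and the 4 genes and 4 isoforms of highest r. SPRY2, SPRY4, DNM1, DNAJC6 and SNX9 were given in addition, without fits that leave out a library.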

Additional observations from a re-analysis of the deposited data

How the results depend on the processing

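With 2 libraries a condition, counts of called features moved with single libraries. Leaving out 1 library (a lone library is then assumed to vary like the others) gave 985 to 2626 genes with shRBM10#1 (1996 with all libraries), 954 to 4566 with shRBM10#2 (3685), 0 to 413 for pooled RBM10 KD (230) and 918 to 3736 between the shRNAs (3628). Pathway genes called ranged over 4 to 25, 7 to 45, 0 to 1 and 6 to 37, isoforms between the shRNAs over 0 to 2 (95), and genes with isoform usage called over 5 to 39 (11), 34 to 151 (176) and 27 to 114 (123). The pooled fits without a shScr library had 1216 and 1383 genes at an unadjusted p under 0.05, and the isoform fits with 0 calls had 3504 to 5564 isoforms there. A log2 FC beyond 1 in addition left 267, 185, 56 and 169 genes, and 1 pathway gene with each shRNA and 1 between them. Without that criterion 595 isoforms passed. DESeq2 called 718 genes and 2 pathway genes in the pooled comparison and 709 isoforms, and limma called usage in 42, 571 and 339 genes. Requiring 10 counts in every library left 7 genes with usage called for shRBM10#1 and 81 between the shRNAs. The 4 libraries of the shRNA comparison alone gave 0 isoforms.

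Libraries with the same replicate number did not deviate together (r across genes −0.00383, −0.0193 and −0.0136), so the numbers gave no pairing. A replicate block left 52 genes and 0 pathway genes called in the pooled comparison (16 at an unadjusted p under 0.05), 0 isoforms, and 4, 83 and 48 genes with usage called. Of the single genes, it lost RAB11FIP1 with shRBM10#1 and UBE2D3 usage with shRBM10#2.

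The share of NM_001184960 by expected counts was 25.6 points lower (−25.6) with shRBM10#1 and 22.4 lower (−22.4) with shRBM10#2, and leaving out a library gave −28.9 to −27.4 and −25.2 to −23.6. These values are descriptions, since the isoform was chosen on this contrast. Over the fits without 1 library, signs changed for CD2AP with shRBM10#1 (−0.16 to 0.057 on the log2 scale), with shRBM10#2 (−0.021 to 0.19) and pooled (−0.087 to 0.13, with −0.014 and −0.0020 without shRBM10#2 library 1 or 2), for CBLC with shRBM10#1 (−0.22 to 0.019) and between the shRNAs (−0.067 to 0.17), and for EGFR between the shRNAs (−0.23 to 0.057). Of these, the EGFR difference of −0.23 passed (without shRBM10#1 library 2, FDR = 0.0347, edgeR), and the values with the changed sign did not. The causes were not tested. How depth bears on the division of reads between the SH3KBP1 isoforms was not tested.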
